A study of Homo sapiens with 4 samples.

Results

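The genes described here encode the proteins of the cytosolic ribosome, measured in A2780s, an established human epithelial ovarian cancer (EOC) cell line. Members were all non-control probes, present on each of the 4 arrays, whose gene name was RPL or RPS with a number (endings A, X, L, AL or L1 allowed), RPLP0, RPLP1, RPLP2 or RPSA. Pseudogene names, ribosomal kinases and names with a Y were left out. This gave 84 genes with 201 probes, all 84 of which were among the 27196 genes tested. The 84 genes comprised 52 of the large (60S) subunit and 32 of the small (40S) subunit. Gene choice used names and no measured value.

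Each array compared RNA of a KO clone, labelled with Cy5, with RNA of a mock-transfected control clone (Ctrl), labelled with Cy3. CRISPR-Cas9 editing gave the 2 GALNT3 KO clones. The 2 clones labelled GALNT3/T6 KO were GALNT3 KO clones that further received an shRNA against GALNT6, so the shRNA vector and its selection cannot be told apart from the loss of GALNT6. Each replicate was 1 clone on 1 array, and no dyes were swapped between arrays. The labels describe Ctrl alike on all 4 arrays and do not state whether it was a single clone. Each value is a log2 ratio, KO to Ctrl, after background correction and loess normalization within each array, and a gene was read from its brightest probe. The number of arrays limits the precision. In such bulk RNA, fewer cells expressing a gene and less of its RNA per cell cannot be told apart.

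Ribosomal proteins wrap the ribosomal RNAs and are needed in matched amounts, so their genes are usually transcribed at a high and even level in all cell types. Their mRNAs typically begin with a terminal oligopyrimidine (TOP) tract, a C followed by further pyrimidines at the cap, through which mTOR signaling and LARP1 control their translation and stability. A few members have a close paralog that takes their place in the ribosome, often with an expression of its own. Some ribosomal proteins, RPL5 and RPL11 among them, also bind MDM2 when ribosome assembly is disturbed and thereby act on p53.

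The targeted genes were read first. On the GALNT3 KO arrays GALNT3 was too dim in both channels to be read, Ctrl included, and checks nothing there. In the clones labelled GALNT3/T6 KO its log2 ratio was 4.80 and 5.08, with the KO channel above Ctrl, which goes against the label. GALNT6 stood at -0.47 and -0.38 in GALNT3 KO, and in the labelled clones at -0.66 and -0.69. For this reason the second group is named by its label throughout. Spots well above background made up 86.9% to 93.8% of a channel and none was saturated, and all 4 arrays lay on 1 slide with 1 scan time. Of 10 markers of ovarian carcinoma cells, 9 were well above background in Ctrl on all 4 arrays, as were 6 of 6 fibroblast, 5 of 6 leukocyte and 2 of 3 endothelial markers, so that presence above background did not separate these lists. The Ctrl channel was not alike in the groups: its log2 signal for the epithelial keratin KRT18 was 10.6 and 10.3 beside GALNT3 KO and 13.4 and 12.6 beside the labelled clones, and for KRT8 10.8 and 10.9 against 13.5 and 13.9. Over the same arrays EPCAM, another epithelial marker, stood at 8.33, 8.13, 8.17 and 8.15 in Ctrl, and PAX8 at 11.0, 10.6, 10.4 and 10.3. In the labelled clones KRT18 also had a ratio of 5.41 and 5.95. The fibroblast markers went both ways there. PDGFRB had 3.09 and 3.79 and COL1A1 had 1.77 and 2.20. COL1A2 (-0.26 and -0.37), COL3A1 (-1.48 and -0.48), DCN (-0.26 and -0.47) and LUM (-1.21 and -1.16) lay below 0. The median Ctrl signal of the members was 17.3, 17.2, 17.3 and 17.5 over the same arrays, but single members shifted in Ctrl. RPL22L1 had 17.5, 17.4, 18.2 and 18.4 there, RPL13A 16.9, 17.0, 17.8 and 17.8, and RPL3 17.1, 17.1, 17.9 and 17.8. RPS21 went the other way, with 17.3, 17.3, 16.2 and 16.4. The part of these Ctrl differences in the members' ratios, and in the differences between the groups, was not tested. In the labelled clones 47.9% of all genes were called in either direction and in GALNT3 KO 11.2%, where a call means that limma's p, adjusted by Benjamini-Hochberg over every gene tested, did not exceed 0.05.

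The probe sequences below identify what was read for the members on which the results turn. They are shown 5′ to 3′ as the files give them, with hg19 positions. RPS27L and its near-copy RPS27 are shown first, since they behaved differently although their probes read the same stretch. In the 54 bases that both probes cover, 12 bases differed (77.8% identical), and these are in capitals. The RPS27L probe lies at chr15:63447866-63447925 on the minus strand and the RPS27 probe at chr1:153964053-153964112 on the plus strand.
RPS27L: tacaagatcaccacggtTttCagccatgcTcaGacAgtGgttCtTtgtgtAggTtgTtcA
RPS27: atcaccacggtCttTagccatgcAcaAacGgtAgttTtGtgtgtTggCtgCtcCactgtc
RPL22L1 (chr3:170584204-170584263, minus strand) and RPS21 (chr20:60962941-60963394, plus strand) are shown as the members with the lowest ratio and, beside RPS27L, the highest ratio in the labelled clones. The RPS21 span is longer than the probe because it crosses an intron.
RPL22L1: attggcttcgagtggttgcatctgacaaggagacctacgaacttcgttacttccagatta
RPS21: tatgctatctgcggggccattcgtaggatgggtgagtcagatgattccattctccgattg
RPS16 (chr19:39924336-39924395, minus strand) stands for the members on the long arm of chromosome 19, and RPLP0 (chr12:120634701-120635147, minus strand, across an intron) for the members that were high in both groups.
RPS16: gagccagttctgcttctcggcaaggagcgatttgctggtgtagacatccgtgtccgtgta
RPLP0: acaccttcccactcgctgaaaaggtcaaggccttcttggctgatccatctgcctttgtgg
Each of these probes has a reading frame free of stop codons over its whole length. Of the 201 member probes, 23 probes of 19 members lay within 9 edits of a probe named for another gene, and for these pairs the copies cannot be told apart.

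The first comparison asked how the members stood in GALNT3 KO clones relative to Ctrl. Most stood above Ctrl, by a similar amount. KO RNA was in Cy5 on every array, and the members lay at a median brightness percentile of 99.7. The part of dye and brightness in this rise was not tested. Of the 84 members, 75 were above 0 on both GALNT3 KO arrays and 7 below 0 on both, against 42.6% and 38.4% of all genes. The median log2 ratio over the members was 0.66 on replicate 1 and 0.73 on replicate 2, while the median of all genes was 0.01 and 0.03. limma called 39 members higher and 0 lower, where 4.77% of all genes were called higher and 6.39% lower. By the criterion of the study's methods, an unadjusted p up to 0.05 with a 1.5-fold change or more, 53 members were higher, against a background of 3.23%, and 0 were lower, against 6.38%. The subunits did not stand apart in GALNT3 KO. There 26 of 52 60S members and 13 of 32 40S members were called higher, with medians of 0.70 and 0.73.

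**Figure D1:**
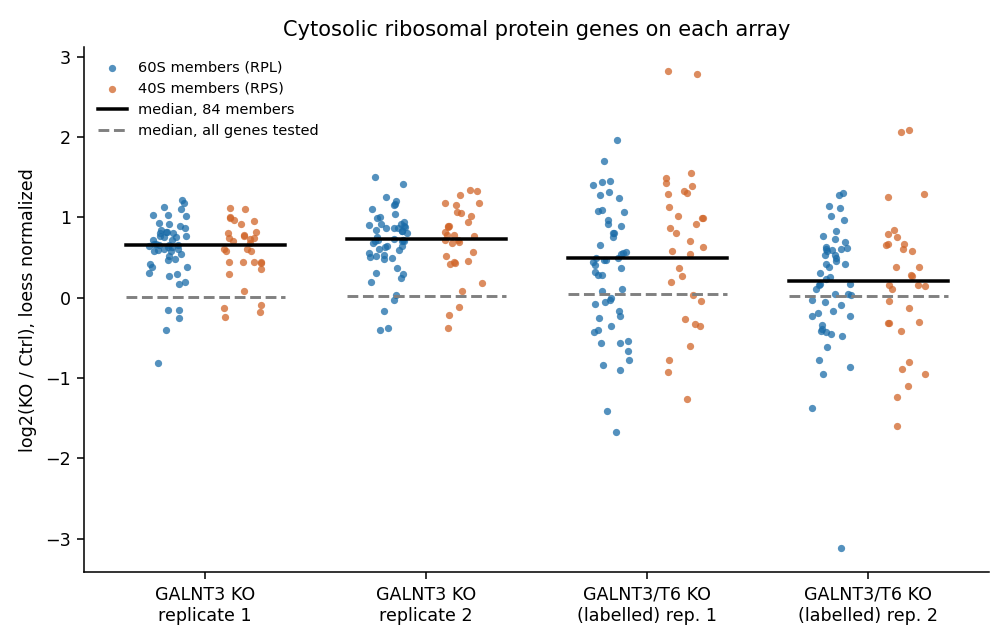
Log2 ratio of KO over Ctrl (vertical axis) for the 52 60S and 32 40S members on each of the 4 arrays, 1 point per gene. Solid lines mark the median of the 84 members and dashed lines that of all genes tested. Most members form a narrow band above 0 on both GALNT3 KO arrays and spread from -3.12 to 2.82 over both arrays labelled GALNT3/T6 KO.

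RPL37A, a 60S protein with a zinc finger, showed the largest rise, with 1.17 and 1.498 on the GALNT3 KO arrays (mean 1.34, SE 0.18, limma adjusted p = 0.0288). RPL13A, also known as part of a complex that silences interferon-induced mRNAs, stood at 1.13 and 1.42 (mean 1.27, SE 0.10, limma adjusted p = 0.013). RPS18, a protein of the 40S head, stood at 1.00 and 1.34 (mean 1.17, SE 0.20, limma adjusted p = 0.0401). On both arrays each of these genes lay at or above 1, beyond the upper quartile of the members. RPS28 reached 1.12 and 1.18 (mean 1.15, SE 0.08, limma adjusted p = 0.0114). RPS2 reached 1.11 and 1.18 (mean 1.15, limma adjusted p = 0.0299), and RPS3A 0.91 and 1.33 (mean 1.12, limma adjusted p = 0.0416). The acidic stalk, which recruits translation factors, did not move as one: RPLP0 rose with 0.89 and 1.26 (mean 1.07, limma adjusted p = 0.0211). Its partner RPLP1 had 0.48 and 0.30 (mean 0.39, limma adjusted p = 0.0628) and RPLP2 had -0.15 and -0.03 (mean -0.09, limma adjusted p = 0.505).

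Among members known for further roles, RPL5 rose by a mean of 0.59 (arrays 0.58 and 0.60, limma adjusted p = 0.0279). RPL11, its partner in the 5S particle, had 0.72 and 0.51 (limma adjusted p = 0.0664). RPS19, mutated in Diamond-Blackfan anemia, rose with 0.68 and 0.94 (limma adjusted p = 0.0319). RPS6, the target of S6 kinase, differed most between the clones, with 0.95 and 0.18 (limma adjusted p = 0.184). RPL38 (0.64 and 0.49), RPS25 (0.45 and 0.72), RPS27A (0.80 and 1.28) and RPS4X (0.44 and 0.52), the X-linked form of RPS4, were above 0 on both arrays without passing the threshold. Among the members below 0 on average were RPL26L1 (-0.60), RPL22 (-0.33), RPS9 (-0.19), RPL39L (-0.19), RPL7L1 (-0.16), RPSA (-0.12), RPLP2 (-0.09) and RPS27L (-0.08), none of them called. For RPL26L1 and RPL22 the sign depended on the probe. The other RPL26L1 probes gave means of 0.17 and 0.15, and the other RPL22 probes 0.03 and 0.61. RPSA, the laminin receptor precursor, is read here by 1 probe with a mean log2 signal of 7.83, the lowest of the members.

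These calls depended on the normalization. With 1 GALNT3 KO array left out, the spread came from the labelled arrays alone, so calls cannot be compared. The median over the members was then 0.73 without replicate 1 and 0.66 without replicate 2. With Agilent's own log ratio the median over the members was 0.29 and 2 members were called, where 2.17% of all genes were called in either direction, whereas median centring gave 1.09 and 59 members.

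In the clones labelled GALNT3/T6 KO the members spread out. Their SD was 0.87 and 0.79, and in GALNT3 KO it was 0.39 and 0.42. The median was 0.50 on replicate 1 and 0.20 on replicate 2, and 57 of 84 members were above 0 on average. By subunit the medians on replicates 1 and 2 were 0.43 and 0.20 for 60S members and 0.75 and 0.21 for 40S members. Both arrays lay above 0 for 48 members and below 0 for 22, against 44.8% and 39.9% of all genes. limma called 37 members higher and 15 lower. The background in this comparison was 24.8% of all genes higher and 23.1% lower, so the share of members called lower was near the background. By the unadjusted 1.5-fold criterion 33 members were higher (background 14.6%) and 10 lower (17.2%). With Agilent's log ratio the split was 22 higher and 17 lower, and with median centring 54 and 7, where either setting called 40.6% of all genes in some direction. Across the 84 members, which share arrays and normalization and are not independent, both arrays of the group correlated at r = 0.832 (rho = 0.801), and the GALNT3 KO arrays at r = 0.846 (rho = 0.755). Between arrays of different groups r was 0.232 to 0.355. All arrays share probes and dye orientation. In this comparison 18 of the 52 calls held under all 14 alternatives other than a test that takes the variance of each gene alone. Those 14 are not all separate checks. For this group, leaving out either GALNT3 KO array gives the same fit as taking the spread from its own arrays. Agilent's log ratio and the deposited table hold nearly the same values.

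RPS27L, a known p53 target that can stand in for RPS27, was the highest member, with 2.82 and 2.06 (mean 2.44, SE 0.21, limma adjusted p = 0.00119). RPS21, a small 40S protein, followed with 2.79 and 2.08 (mean 2.43, SE 0.22, limma adjusted p = 0.00154), and its second probe gave 1.95 and 1.33. RPL37 stood at 1.97 and 1.31 (mean 1.64, SE 0.18, limma adjusted p = 0.00245). For these 3 genes both values exceeded both GALNT3 KO values. RPL15 stood at 1.40 and 1.28 (mean 1.34, limma adjusted p = 0.000576), but its second, dimmer probe gave -0.29 and -0.34. RPL27A stood at 1.71 and 1.02 (mean 1.36, limma adjusted p = 0.0043), and its second probe, far dimmer, gave -1.18 and -1.30. RPL37A rose here too, with 1.45 and 0.83 (mean 1.14, limma adjusted p = 0.00768), as did RPLP0, with 1.07 and 1.12 (mean 1.09, limma adjusted p = 0.0023). RPS25, needed for translation from some viral internal ribosome entry sites, rose with 1.39 and 0.84 (limma adjusted p = 0.0059), and RPS27A, made as a fusion with ubiquitin, with 1.496 and 0.66 (limma adjusted p = 0.0202).

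RPL22L1 was the lowest member, with -1.67 and -3.12 (mean -2.40, SE 0.35, limma adjusted p = 0.0059). They were the lowest values of any member on their arrays and the next lowest 60S values were the -1.42 of RPL22 and the -1.37 of RPL34. RPL22, the member that RPL22L1 copies, fell as well, with -1.42 and -0.87 (mean -1.14, SE 0.15, limma adjusted p = 0.00473). RPS9 fell with -1.26 and -1.59 (mean -1.43, SE 0.11, limma adjusted p = 0.000924). RPL34 fell with -0.54 and -1.37 (mean -0.95, SE 0.23, limma adjusted p = 0.0275), and all 6 of its probes lay below 0. RPS16 fell with -0.77 and -1.10 (mean -0.93, SE 0.13, limma adjusted p = 0.00491), and RPS19 with -0.60 and -0.89 (mean -0.75, SE 0.12, limma adjusted p = 0.00784). RPL5 (0.09 and 0.11), RPL11 (-0.35 and 0.18), RPS6 (0.58 and -0.12), RPL38 (0.45 and -0.05), RPLP1 (-0.07 and 0.05), RPLP2 (-0.16 and -0.34) and RPS4X (-0.33 and -0.04) did not pass the threshold. With median centring RPL5, RPL11, RPL38, RPLP1 and RPS4X came out called higher, at 0.68, 0.55, 0.78, 0.55 and 0.43. RPSA passed the threshold at -0.26 and -0.30 (limma adjusted p = 0.0394) from its dim probe, a call lost with Agilent's log ratio, at 0.0125.

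Set against each other directly, the groups differed in 27 members. Each value here is a difference of ratios over Ctrl, so shifts of the Ctrl signal between the groups enter it. On the arrays labelled GALNT3/T6 KO, 3 members were higher than on the GALNT3 KO arrays and 24 were lower, where 11.9% of all genes were called in each direction. By the unadjusted 1.5-fold criterion the counts were 4 higher (background 13.2%) and 26 lower (13.7%). Both labelled arrays lay below both GALNT3 KO arrays for 42 of 84 members, against 31.0% of all genes, and above them for 12, against 30.0%. RPL22L1 showed the largest difference, at -3.29 (SE 0.49, limma adjusted p = 0.0115), from 0.80 and 0.99 on the GALNT3 KO arrays to -1.67 and -3.12. RPL34 differed by -1.77 (SE 0.33, limma adjusted p = 0.0218), RPS16 by -1.68 (SE 0.18, limma adjusted p = 0.00464) and RPS19 by -1.56 (SE 0.17, limma adjusted p = 0.00473). RPL13A, near the top in GALNT3 KO, had -0.26 and -0.23 on the other arrays, a difference of -1.52 (SE 0.14, limma adjusted p = 0.00332). RPL3, a core protein near the peptidyl transferase center, went from 1.02 and 1.21 to -0.57 and -0.09, a difference of -1.44 (SE 0.20, limma adjusted p = 0.00975). In the other direction stood RPS27L (2.52, SE 0.29, limma adjusted p = 0.00566), RPS21 (1.70, SE 0.32, limma adjusted p = 0.0214) and RPL15 (0.63, SE 0.12, limma adjusted p = 0.0243). RPL15 was the one of these whose sign depended on the probe, with -0.073 when all its probes were averaged. Without GALNT3 KO replicate 1, 2 members were called, and without replicate 2, 0 members, while 23.7% of all genes were called with all arrays, 4.59% without replicate 1 and 5.39% without replicate 2.

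**Figure D2:**
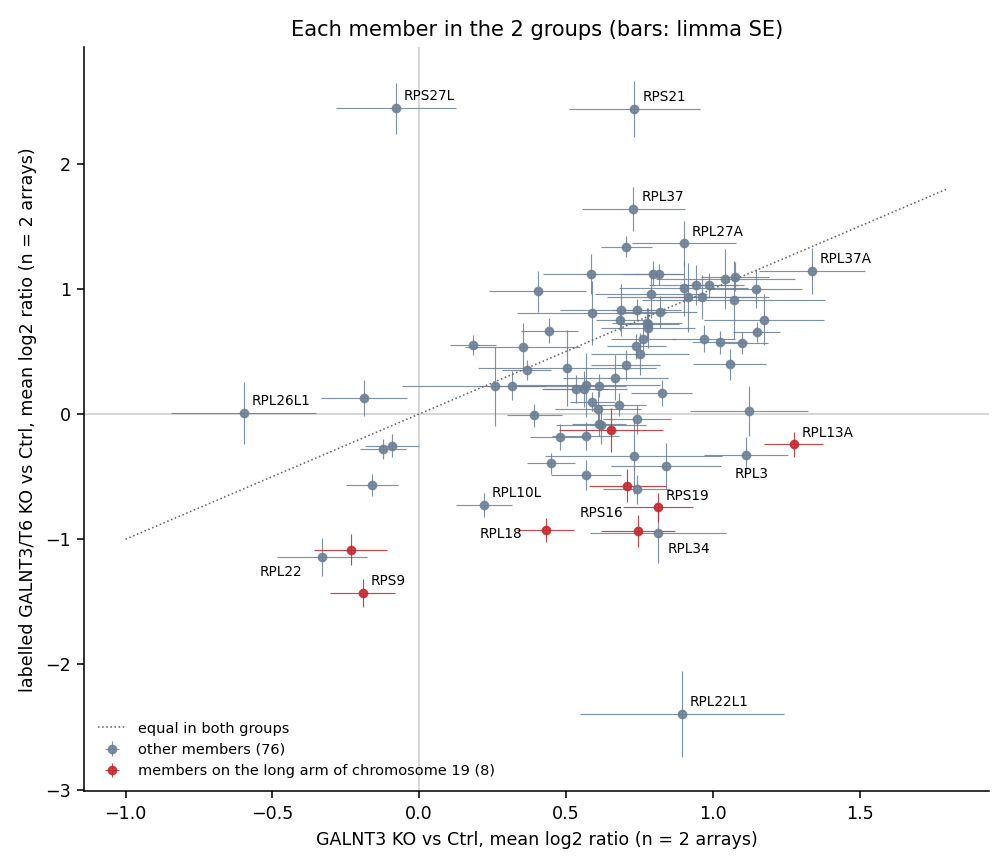
Mean log2 ratio over Ctrl of each of the 84 members in GALNT3 KO (horizontal axis) and in the clones labelled GALNT3/T6 KO (vertical axis), with n = 2 arrays each and bars for limma's SE. The dotted line marks equal ratios and red points are the 8 members on the long arm of chromosome 19. RPS27L and RPS21 lie far above the line, RPL22L1 far below it, and all red points below it.

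Several paralogs had other values than the members they copy. RPS27 and RPS27L went opposite ways between the groups. RPS27 had 0.97 and 0.68 in GALNT3 KO and 0.19 and 0.14 on the other arrays (difference -0.66, SE 0.15, limma adjusted p = 0.0354), whereas RPS27L had -0.24 and 0.08, then 2.82 and 2.06. The second RPS27L probe, with a mean log2 signal of 6.94, gave 0.09 and 0.12 in the labelled clones. RPL22 and RPL22L1 both fell on those arrays, but in GALNT3 KO they had means of -0.33 (limma adjusted p = 0.194) and 0.90 (limma adjusted p = 0.144), neither of them called. The other RPL22 probes gave means of 0.03 and 0.61 in GALNT3 KO. RPL36AL (0.57 and 0.54) and RPL36A (0.80 and 0.69) were both called higher in the labelled group, with limma adjusted p = 0.00551 and 0.00271, and RPL36A also in GALNT3 KO (0.72 and 0.65, limma adjusted p = 0.0252). RPL39 rose in the labelled group with 1.31 and 0.60 (limma adjusted p = 0.0154), and RPL39L, best known from testis, had 0.29 and -0.03. RPL3L, the striated muscle form of RPL3, is dim here and had 0.32 and 0.38 (limma adjusted p = 0.0255). RPL7L1 fell with -0.66 and -0.47 (limma adjusted p = 0.00764), and RPL7 averaged -0.08 without a call. RPL26 rose with 1.24 and 0.42 (limma adjusted p = 0.0284), and RPL26L1 had 0.47 and -0.45 from its brightest probe, while its other probes gave means of 0.73 and 0.79. A probe of RPL26L1 and the brightest probe of RPL26 were within 9 edits of each other. RPL10L, a retrogene of RPL10, fell with -0.84 and -0.61 (limma adjusted p = 0.00427), and RPL10 is not named on the array. Of the 8 paralogs, 0 were called in GALNT3 KO, 3 were called higher in the labelled group (RPS27L, RPL36AL and RPL3L) and 3 lower (RPL22L1, RPL10L and RPL7L1), against the 24.8% and 23.1% of all genes given above. With 11.2% of all genes called in GALNT3 KO, nothing is read from a count of 0 in 8.

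**Figure D3:**
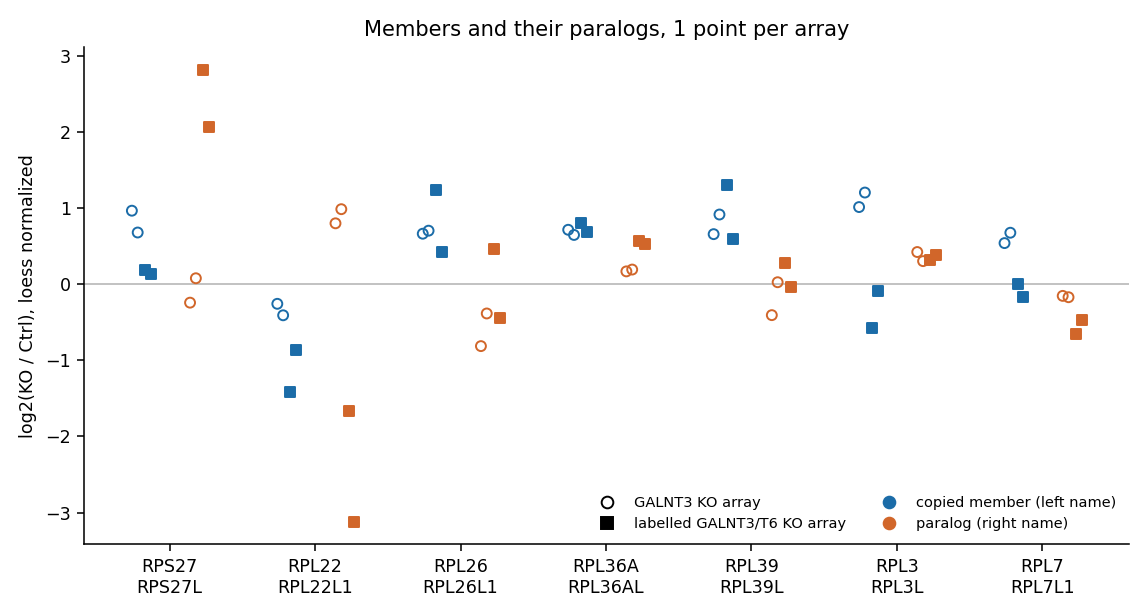
Log2 ratio of KO over Ctrl (vertical axis) for 7 members (blue) and their paralogs (orange), 1 point per array, with open circles for GALNT3 KO and filled squares for the clones labelled GALNT3/T6 KO. RPS27L reaches 2.82 while RPS27 stays at or below 0.97, and RPL22L1 reaches -3.12.

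Position was not used to choose the members, and the following split was made after the values were seen. Of the 12 members on chromosome 19, 8 lie on the long arm, among them RPS16, RPS19, RPL18, RPL13A, RPS9 and RPL28 in map order, and 4 on the short arm, among them RPS15, RPL36 and RPS28. The arms were parted at the widest gap between tested genes on hg19, from 24309844 to 28266670. In GALNT3 KO the 8 long-arm members had a median of 0.68, like the 0.73 of the 76 others. In the labelled clones their median was -0.84, against 0.51 for the others, and all 8 had a mean below 0. limma called 6 of them lower, against 23.1% of all genes. RPL13A (-0.24, limma adjusted p = 0.109) and RPL28 (-0.43 and 0.18, limma adjusted p = 0.578) did not pass. Between the groups all 8 were lower on the labelled arrays, with a median difference of -1.32 against -0.16 for the other members. Of the 8 differences 7 were called, where 11.9% of all genes were called lower. RPL18 went from 0.31 and 0.55 to -0.90 and -0.95 (difference -1.35, limma adjusted p = 0.00397), and both of its probes gave this fall. The short-arm members RPS15 (0.54 and 0.79) and RPS28 (0.64 and 0.67) were above 0 and RPL36 (-0.56 and -0.41) was not. For RPS28 the sign depended on the probe, since its second probe gave -0.42 and -0.68. With median centring the long-arm median was -0.26 on the labelled arrays and 5 of 8 were below 0, while the median difference between the groups was -1.19 with all 8 lower.

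Among the other genes of the long arm brighter than the median gene tested, the median in the labelled clones was -0.53 over 415 genes. Of these, 186 were called lower than in GALNT3 KO and 19 higher. Of all 13510 genes as bright that are not members, 2374 were called lower and 2001 higher. Over all 901 other genes of the arm the median in the labelled clones was -0.17. Genes as bright had a median of -0.12 on the short arm, over 412 genes, and of -0.02 over all 13510 that are not members. DNA copy number was not measured, and its part in these values was not tested. The 5 members on chromosome 11 had the highest median of any chromosome with 5 or more members in the labelled group, at 1.12, with RPLP2 as the exception.

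**Figure D4:**
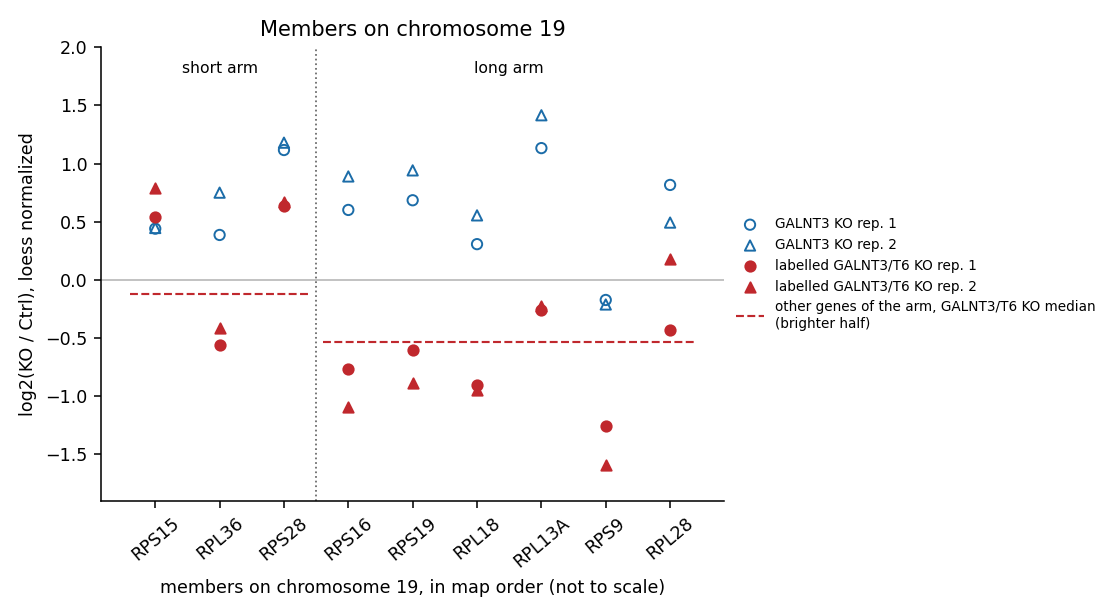
Log2 ratio of KO over Ctrl (vertical axis) of 9 members on chromosome 19 in map order, with 4 points per gene for the 4 arrays. Dashed red lines give the median of the other genes of each arm that are brighter than the median gene in the clones labelled GALNT3/T6 KO, -0.12 and -0.53. On the long arm every red point lies below both blue points of its gene.

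A further feature shared by the members is the start of their transcripts. Starts were taken from RefSeq on GRCh38.p14, where 67 of 84 members had an entry. A TOP start was counted where an annotated start was a C followed without a gap by at least 4 C or T on the strand of the gene. It was found in 46 of 67 members (68.7%) and in 5.14% of all 27305 genes with an entry. The windows below hold 12 bases before the start and 18 from it, with the run of pyrimidines in capitals. They are shown to set RPS27L, which had no such run at its annotated start, beside members that had one.
RPS27 (chr1:153990750-153990779, plus strand): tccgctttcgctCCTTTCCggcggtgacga
RPS27L (chr15:63157460-63157489, minus strand): ttgatgccgagcgcagatcgcttgcagctt
RPL22L1 (chr3:170870178-170870207, minus strand): ggccgtagcttcCTCTCTgctctcgcggcc
RPS21 (chr20:62387091-62387120, plus strand): gactagctgcttCCTTTCTCTCTCgcgcgc
RPS19 (chr19:41860243-41860272, plus strand): aaccccgtcgttCCCTTTCCCCTggctggc
RPLP0 (chr12:120201094-120201123, minus strand): cgggcgcgaggcCCTTCTCTCgccaggcgt
In the labelled clones the highest members were RPS27L, with no run, and RPS21, with a run of 12 bases, and the lowest was RPL22L1, with a run of 6. Members with a TOP start had a median of 0.74 in GALNT3 KO and 0.21 in the labelled group, and the 21 members with a start but no such run had 0.67 and 0.37. limma called 22 of 46 and 7 of 21 members of these sets higher in GALNT3 KO, against 4.77% of all genes. In the labelled group 19 of the 46 were called higher and 11 lower, and of the 21, 8 higher and 2 lower. Of all genes 24.8% were called higher there and 23.1% lower, so the share of the 46 called lower was near the background.

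Other genes of the ribosome pathway were read from fixed lists. Of the remaining cytosolic ribosome genes, FAU, which encodes RPS30 fused to a ubiquitin-like protein, rose in both groups, with 0.60 and 0.43 in GALNT3 KO (limma adjusted p = 0.0472) and 1.47 and 1.24 in the labelled group (limma adjusted p = 0.000844). RACK1, named GNB2L1 on the array, had a mean of 0.19 in GALNT3 KO and of -0.37 in the labelled group, neither of them called. Mitochondrial ribosomal proteins did not share the rise in GALNT3 KO: of 77 genes, 1 was called higher (MRPL30, mean 0.69) and 7 lower, with a median of -0.10, and in the labelled group 15 were higher and 24 lower, with a median of -0.08, where 47.9% of all genes were called. The largest called changes in the labelled group were those of MRPL50 (mean -1.69), MRPS12 (-1.40) and MRPS31 (-1.34), and in GALNT3 KO those of MRPL30, MRPL35 (-0.69) and MRPS28 (-0.67). Ribosome assembly factors were mostly lower in the labelled group. Of 90 such genes, 7 were called higher and 52 lower in the labelled group, against 24.8% and 23.1% of all genes. Their median there was -0.61 against 0.03 for all genes. In GALNT3 KO 1 was higher and 7 lower, with a median of -0.12. Of all genes 4.77% were called higher there and 6.39% lower, so the share called lower was near the background. Between the groups 31 were lower on the labelled arrays and 4 higher, against 11.9% of all genes in each direction. The largest falls were FBL, the methyltransferase of box C/D small nucleolar RNPs (-2.74 and -1.99, limma adjusted p = 0.00111), PWP2 (-2.85 and -1.77, limma adjusted p = 0.00334) and WDR3 (-2.50 and -2.01, limma adjusted p = 0.00158). In GALNT3 KO the largest changes were falls of DDX10 (mean -0.90) and EMG1 (-0.76) and a rise of NIFK (0.64).

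In GALNT3 KO 4.77% of all genes were called higher and 6.39% lower, so a count of 1 in the lists below is near those shares. In the labelled group the shares were 24.8% and 23.1%. Of 17 genes for RNA polymerase I and its factors, 2 were called higher and 10 lower in the labelled group, with a median of -0.63. The falls were led by TAF1C (mean -1.78, limma adjusted p = 0.000603). PTRF (0.72 and 2.38, limma adjusted p = 0.0309) and TAF1D (mean 1.40, limma adjusted p = 0.00745) went in the other direction. In GALNT3 KO 1 rose (POLR1E, 0.46) and 1 fell (TAF1A, -0.88), with a median of -0.26. Translation factors with known TOP mRNAs and their relatives had a median of 0.31 in GALNT3 KO, where 5 of 20 were higher and 1 lower. There the elongation factor EEF1A1 stood at 1.45 and 1.11 (limma adjusted p = 0.0249), TPT1 at 0.82 and 0.78 (limma adjusted p = 0.0321) and NACA at 0.85 and 0.67 (limma adjusted p = 0.0259). In the labelled group 4 of the 20 were higher and 9 lower, with EEF2 at -2.01 and -1.31 (limma adjusted p = 0.00249), EIF3K at -1.41 and -1.52 (limma adjusted p = 0.000486) and EEF1A2 at -1.41 and -1.39 (limma adjusted p = 0.000695). Small nucleolar RNA host genes, several of which also carry TOP starts, included SNHG8, which went from 1.11 and 1.36 in GALNT3 KO (limma adjusted p = 0.0467) to -0.84 and -1.79 (limma adjusted p = 0.0118). Of these 12 genes, 1 was higher and 1 lower in GALNT3 KO, and 2 were higher and 4 lower in the labelled group, with EPB41L4A-AS1 at a mean of -1.45 and SNHG11 at 1.45. Among 23 regulators, MYC, which drives ribosomal protein genes, had 0.61 and 0.19 in GALNT3 KO (limma adjusted p = 0.0989) and fell to -1.63 and -1.54 in the labelled group (limma adjusted p = 0.000978). LARP1 had -1.496 and -0.52 there (limma adjusted p = 0.0352), and MTOR had -0.26 and 0.43 without a call. The largest changes among the regulators in the labelled group were the fall of EIF4EBP2 (mean -2.16) and the rises of RHEB (1.98) and RRAGC (1.97), activators of mTOR complex 1. The list gave 1 gene higher (MXI1, 0.54) and 1 lower (EIF4EBP2, -0.95) in GALNT3 KO, and 6 higher and 7 lower in the labelled group (background 47.9% in either direction). Of 19 named ribosomal protein pseudogenes, 4 were higher and 1 lower in GALNT3 KO, with a median of 0.47, and 5 were higher and 3 lower in the labelled group, with RPL13P5 lowest (mean -1.67), beside RPL13AP3 (-0.99) and RPS20P27 (0.98), where the background was again 47.9%. In GALNT3 KO RPLP0P2 was highest (0.98).

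Among all genes outside the members and lists, those whose 4 log2 ratios lay closest to the median member, by Euclidean distance over the 4 arrays, were the transcripts AK022443 (0.11) and ENST00000399415 (0.14) and the genes ZNF331 (0.12), SIRT2 (0.15) and TMEM206 (0.15). The reference genes GAPDH (-0.14, -0.04, -0.12 and 1.14), ACTB (0.30, -0.27, -0.69 and 0.71) and GUSB (-0.31, -0.20, -0.01 and 0.90 over GALNT3 KO replicates 1 and 2 and the labelled replicates 1 and 2) did not share the members' rise in GALNT3 KO. On labelled replicate 2 each was far higher than on labelled replicate 1 and stood above the members' median of 0.20.

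The members sit at the bright end of the arrays, with a median brightness percentile of 99.7 and 80 of 84 at or above the 90th percentile. The other genes at or above the 90th percentile had medians of -0.06 in GALNT3 KO and -0.17 in the labelled group. Most of these were dimmer than the median member, so they do not match the members in brightness. Within a gene the brighter probe tended to read higher: of 57 members with several probes, the brightest exceeded the dimmest in 47 in GALNT3 KO (median difference 0.27) and in 45 in the labelled group (0.31), against 70 and 64 of 126 genes of the other lists (0.05 and 0.01). All probes were above 0 in GALNT3 KO for 39 of the 57, all were below 0 for 3 and the signs were mixed for 15. In the labelled group these counts were 25, 13 and 19, and for the difference between the groups 11, 31 and 15. The probes that differed most belonged to RPL27A, RPS27L and RPS14, whose dimmest probe gave -0.99 and -1.36 where its others were positive. Before any normalization the median of the members was 0.49, 0.44, 0.09 and 0.52 on the 4 arrays, while the median over all probes was -0.32, -0.56, -0.64 and 0.02.

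**Figure D5:**
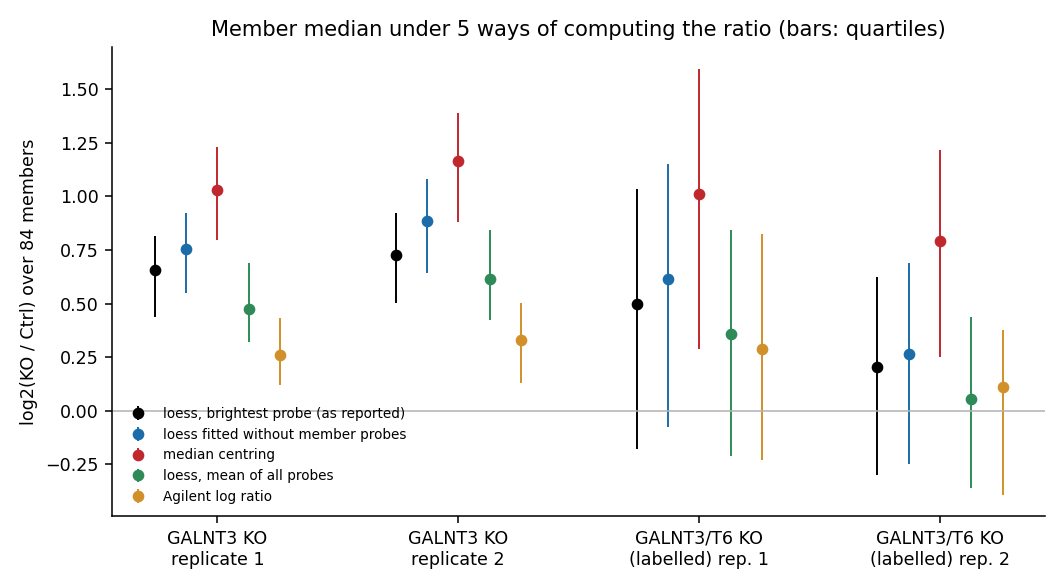
Median log2 ratio over the 84 members on each array (vertical axis, bars from the lower to the upper quartile) under 5 ways of computing the ratio. All medians lie above 0, from 0.26 to 1.17 on the GALNT3 KO arrays, and the labelled replicate 2 has the lowest median under each.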

How the data were processed

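Members, lists and tests were chosen with earlier results of these data known. Cells of the established line A2780s gave 4 two-color Agilent 4 × 44K arrays, each with 1 KO clone in Cy5 and Ctrl in Cy3. The deposited scanner files hold spot intensity values, which per the submitters' notes the authors extracted with Agilent Feature Extraction 8.5.1.1, while the file headers name 10.7.3.1. The deposited log ratio column and value table hold log10 ratios, dye-normalized and background-subtracted by the authors' software. The medium protocols differ between the sources and were not used.

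Here 45015 spots per array, of which 1639 were control spots, were corrected with normexp (offset 50) and normalized by loess in limma 3.58.1 (R 4.3.3), with control spots at weight 0. The 442 spots flagged as outliers were dropped. Probes had to exceed background in 1 channel or both on each array of either group, and the brightest one left stood for its gene. All 27196 genes were fitted with a mean per group, and p-values were adjusted over all of them (Benjamini-Hochberg). Replicates were clones, and no Ctrl was hybridized against Ctrl, so tests against 0 leave out its spread. Named members were the 6 largest rises and falls per comparison among consistent calls, the paralogs and their partners, members with known extra roles, those whose probes differed most, and the 3 largest called changes in each list of other genes. A few named genes are not reported here singly but count in the totals. Chromosome 19 members were added after values were seen. The fit was tested on simulated data. The numbers of replicates did not pair the arrays: between the groups, differences of same-numbered replicates correlated at -0.238 over all genes. Alternatives covered normalization, probe choice, filter, test, replicate block and leaving out each array. Tables and figures used Python 3.11.15, pandas 2.3.3 and matplotlib 3.10.9.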

Additional observations from a re-analysis of the deposited data

Results flagged for a closer look

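Because each of these groups held 2 arrays, no sample could be judged an outlier. The effect against Ctrl differed between the groups, by limma's test of the difference (adjusted p of at most 0.05), in 27 members, and the values that follow, for those reported singly, are the log2 ratio of the arrays labelled GALNT3/T6 KO minus that of the GALNT3 KO arrays. It was lowest in RPL22L1 (-3.29), RPL34 (-1.77), RPS16 (-1.68), RPS19 (-1.56), RPL13A (-1.52), RPL3 (-1.44), RPL18 (-1.35), RPL13 (-1.34), RPL21 (-1.25), RPS9 (-1.23) and RPL36 (-1.06). Smaller differences in the same direction stood in RPL10L (-0.95), RPL29 (-0.84), RPL10A (-0.78), RPS24 (-0.74), RPL7 (-0.69), RPS4X (-0.66), RPS27 (-0.66), RPS26 (-0.61), RPL7A (-0.53), RPS28 (-0.50) and RPL5 (-0.49). RPL15 (0.63), RPS21 (1.70) and RPS27L (2.52) differed in the other direction. Background for these calls is 11.9% of all genes in each direction. For RPL5 the second probe gave a difference of -0.15.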

How the results depend on the processing

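The size of the members' rise depended on the normalization. In GALNT3 KO, 39 calls became 59 with median centring (8.57% of all genes called) and 74 with only its own arrays giving the spread (34.8%). They became 2 with Agilent's log ratio (2.17%) and with the deposited table (2.15%). With a t-test per gene they became 0, but so did the calls over all genes (0.0%), and 23 members met the unadjusted 1.5-fold threshold. The member median of 0.72 became 1.09 with median centring, 0.84 with loess fitted without member probes, 0.56 with the mean of all probes, and 0.29 with Agilent's log ratio and with the deposited table. For the labelled group, 52 calls became 0 with the t-test, which called 0.0% of all genes (7 members higher and 1 lower before adjustment). The median of 0.36 became 0.88 with median centring and 0.23 with the mean of all probes, the deposited table or Agilent's log ratio. Between the groups, 27 calls became 17 with median centring (18.9% of all genes) and 0 with the t-test (0.125% of all genes, with 2 members higher and 16 lower before adjustment). The median of -0.29 became -0.16 with median centring, -0.0444 with Agilent's log ratio and -0.0446 with the deposited table. The median over all genes was -0.0035 as reported but -0.0617 with Agilent's log ratio and with the deposited table, where the members' median was thus no lower. Leaving out 1 array at a time gave 0 to 74 calls in GALNT3 KO, 35 to 61 in the labelled group and 0 to 43 between the groups, and medians of 0.66 to 0.73, 0.20 to 0.50 and -0.46 to -0.15. The lone array of a group was then assumed to vary like the other group. Without either GALNT3 KO replicate the calls fell to 0 in GALNT3 KO, to 35 in the labelled group and to at most 2 between the groups, and without labelled replicate 1 they went to 74, 50 and 37, and without labelled replicate 2 to 74, 61 and 43.

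Of the 261 other genes of the pathway, 34 calls in GALNT3 KO became 4 with Agilent's log ratio, 3 with the deposited table, 114 with only its own arrays giving the spread and 0 with the t-test. In the labelled group 151 became 0 with the t-test, and between the groups 84 became 1. Leaving out 1 array gave 0 to 114, 101 to 170 and 3 to 138 calls. With replicate number as a block, calls in members were 0 in GALNT3 KO (54 members met the unadjusted 1.5-fold criterion), 45 in the labelled group and 15 between the groups. Of all genes 0.302%, 37.1% and 17.4% were called in either direction. The total of 15 is near that background, but it was made of 1 member higher and 14 lower. In the other pathway genes the calls were 0, 122 and 54. The replicates share only a number. The crossed pairing, added after the data were seen, gave 56, 55 and 30 member calls, beside 13.8%, 49.8% and 26.9% of all genes. No background correction and no filter on dim probes left all member counts as they were. With median centring 16 of 84 members changed sign in the labelled group, 3 of them called as reported, such as RPL13 (0.09) and RPL29 (0.04), and 5 called higher under the setting: RPL10A (0.60), RPL11 (0.55), RPL7 (0.38), RPLP1 (0.55) and RPS4X (0.43). The called RPSA changed sign (0.0125) with Agilent's log ratio and the deposited table, and so did, between the groups, RPL15 (-0.0726) with the mean of all probes. The cause was not tested.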
